A study of Mus musculus with 32 samples.

Results

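The interferon-stimulated genes described here are 39 named mouse genes, taken as every non-control probe whose gene name in the raw array files is one of the 39 symbols. All 39 were found on the array, on 67 of its 56605 non-control probes. The group holds MX and IFIT antiviral proteins (5 genes), the oligoadenylate synthetase family (6), other antiviral and cell-intrinsic effectors (12), ISG15 with its conjugation (3), cytosolic RNA sensors (3), transcription factors (4) and GBP and IRG GTPases (6). All 39 passed the filter on dim probes, among 23644 genes tested.

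Agilent one-colour arrays, 1 per mouse, measured the liver transcripts of 32 F1 males of the strain C57BL/6J in 4 groups of 8. Western E171 and Western control mice ate a Western diet (called high-fat in the treatment protocol) for the last 16 weeks, normal E171 and normal control mice a normal diet, and all were sampled at 21 weeks of age. E171 is food-grade titanium dioxide, mixed into pellets at a target dose of 10 mg/kg body weight each day. The E171 mice were exposed through mothers given such pellets since before mating and then directly, and the control mice and their mothers were never given it. Litter is not stated, so the 8 mice of a group may include littermates. P-values then measure the spread between these mice.

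Interferons are cytokines that infected or stimulated cells release. Types I and III signal through JAK kinases to a complex that holds STAT2 and IRF9 and binds the interferon-stimulated response element (ISRE) in target promoters, and type II (interferon gamma) acts through gamma-activated sequences (GAS). The target genes block viral replication, degrade or sense foreign RNA, attack the vacuoles of intracellular microbes and feed back on the pathway. In the liver, Kupffer cells, endothelial cells and hepatocytes can all respond to interferon.

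The promoters of a few members are shown with their matches to the ISRE and GAS marked. The windows below, from RefSeq on GRCm38.p6, run from 250 bases before to 50 after the transcription start, 5′ to 3′ on the strand of the gene. Capitals mark every match to the ISRE core (GAAA, any 2 bases, GAAA) or to the GAS core (TTC, any 3 bases, GAA), searched on both strands. Oas1a, Oas3, Ifit3 and Gbp2 are shown as examples with an ISRE match whose transcripts were higher on the Western diet in both treatments. Oasl2, Ifit2, Ifi44 and Xaf1 were also higher in both, and their windows held no ISRE match. Isg15 is shown because its window held the most ISRE matches of any member and its transcript was not called. Oas1a (chr5:120907476-120907775, minus strand) held 2 overlapping ISRE matches and 1 GAS match, Oas3 (chr5:120777610-120777909, minus strand) and Gbp2 (chr3:142620413-142620712, plus strand) held 1 ISRE match each, Ifit3 (chr19:34583279-34583578, plus strand) held 2, and Isg15 (chr4:156200769-156201068, minus strand) held 3 that overlap.
Oas1a: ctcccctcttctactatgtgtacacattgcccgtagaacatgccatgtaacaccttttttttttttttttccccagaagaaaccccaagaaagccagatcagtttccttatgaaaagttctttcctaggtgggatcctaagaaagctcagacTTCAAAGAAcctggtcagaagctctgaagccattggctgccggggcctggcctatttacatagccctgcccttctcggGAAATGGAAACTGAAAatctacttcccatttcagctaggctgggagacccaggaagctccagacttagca
Oas3: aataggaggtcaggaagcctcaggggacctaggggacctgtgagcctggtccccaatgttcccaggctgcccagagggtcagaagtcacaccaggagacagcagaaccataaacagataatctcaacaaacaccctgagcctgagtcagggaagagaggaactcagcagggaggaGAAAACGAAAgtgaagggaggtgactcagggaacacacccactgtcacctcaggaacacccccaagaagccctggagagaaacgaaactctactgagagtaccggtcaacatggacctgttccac
Ifit3: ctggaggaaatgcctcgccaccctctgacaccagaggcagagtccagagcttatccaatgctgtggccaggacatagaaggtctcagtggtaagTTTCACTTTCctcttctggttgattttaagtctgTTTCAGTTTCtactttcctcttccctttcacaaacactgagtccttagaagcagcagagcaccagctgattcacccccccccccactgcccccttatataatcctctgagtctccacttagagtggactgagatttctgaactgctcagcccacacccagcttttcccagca
Gbp2: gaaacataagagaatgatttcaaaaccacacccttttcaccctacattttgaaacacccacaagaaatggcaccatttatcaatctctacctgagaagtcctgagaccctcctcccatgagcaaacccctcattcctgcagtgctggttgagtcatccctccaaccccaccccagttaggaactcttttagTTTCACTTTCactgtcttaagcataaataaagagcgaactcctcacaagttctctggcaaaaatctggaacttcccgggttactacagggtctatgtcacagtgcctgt
Isg15: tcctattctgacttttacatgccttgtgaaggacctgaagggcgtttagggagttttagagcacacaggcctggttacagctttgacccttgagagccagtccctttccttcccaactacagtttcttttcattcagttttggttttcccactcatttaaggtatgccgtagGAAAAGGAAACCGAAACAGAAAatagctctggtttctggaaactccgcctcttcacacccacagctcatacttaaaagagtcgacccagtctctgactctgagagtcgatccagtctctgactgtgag

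Of the 39 members, 30 had a promoter in the RefSeq table; Mx1, Mx2, Oas2, Usp18, Dhx58, Iigp1, Parp14, Rtp4 and Zbp1 did not. An ISRE core lay in 18 of the 30 (60.0%), against 3.99% of 27025 genes with a promoter. A GAS core lay in 9 of the 30 (30.0%), against 9.55% of all genes. Counted by window rather than by gene, 3.44% of all 32851 windows held the ISRE core and 8.3% the GAS core. The ISRE core was in 7 of the 11 members (63.6%) that were higher on the Western diet in both treatments and have a window, and in 11 of the 19 other members (57.9%). The GAS core was in 2 of the same 11 members and in 7 of the other 19. A match describes the letters in the window and is not evidence of binding.

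Levels are given as scaled intensity, where 100 is the 75th percentile of the processed signal on an array, and differences are on the log2 scale with their standard error (SE). Where 3 values stand for a group, they are the lowest, the median and the highest of its 8 mice. A call is an adjusted p under 0.05 from limma, with Benjamini-Hochberg adjustment over all 23644 genes. The diet changed much of the transcriptome: 53.2% of genes were called between the diets in E171 mice and 47.3% in control mice, and the median difference of all genes was -0.10 in both. In the Western livers 11 of 15 Kupffer cell and macrophage markers were higher and 1 was lower in each treatment. All 5 monocyte markers were higher in both treatments, and 9 (E171 mice) or 10 (control mice) of 10 hepatocyte markers were lower. In bulk liver, fewer cells of a type and less RNA per cell cannot be told apart. The mean log2 level of the 10 hepatocyte markers, relative to the 75th percentile, was compared between the diets. It ranged from 8.08 to 8.58 in Western E171 mice, against 8.83 to 9.06 in normal E171 mice. In Western control mice it ranged from 8.11 to 8.95, against 8.80 to 9.07 in normal control mice.

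On the Western diet most oligoadenylate synthetases and several MX, IFIT and other antiviral effectors were higher, and few members were lower. In E171 mice 14 of 39 members were higher on the Western diet, where 22.2% of all genes were, and 6 were lower, where 31.0% of all genes were. Quantile normalization gave 14 higher and 4 lower in E171 mice, and the deposited values gave 14 and 2. The shares of all genes called under these 2 settings are not given here. In control mice 17 were higher (18.5% of all genes) and 2 lower (28.8% of all genes). The median member difference was 0.13 in E171 mice and 0.25 in control mice, against -0.10 for all genes in either. The E171 and control comparisons share no mice. All 14 members higher in E171 mice were also higher in control mice: Mx1, Ifit2, Ifit3, Oas1a, Oas1g, Oas2, Oas3, Oasl2, Usp18, Ifi44, Gbp2, Gbp3, Xaf1 and Trim30a. Of all genes, 16.6% were higher in both comparisons. Each of these 14 had a positive difference on all 4 array slides in both treatments. The slides split the same arrays that gave the calls, so this is not separate support. Stat2, and Gbp5 on the probe used (its other probe goes the other way), were lower in both, as 22.9% of all genes were, and 16 members were called in neither.

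**Figure D1:**
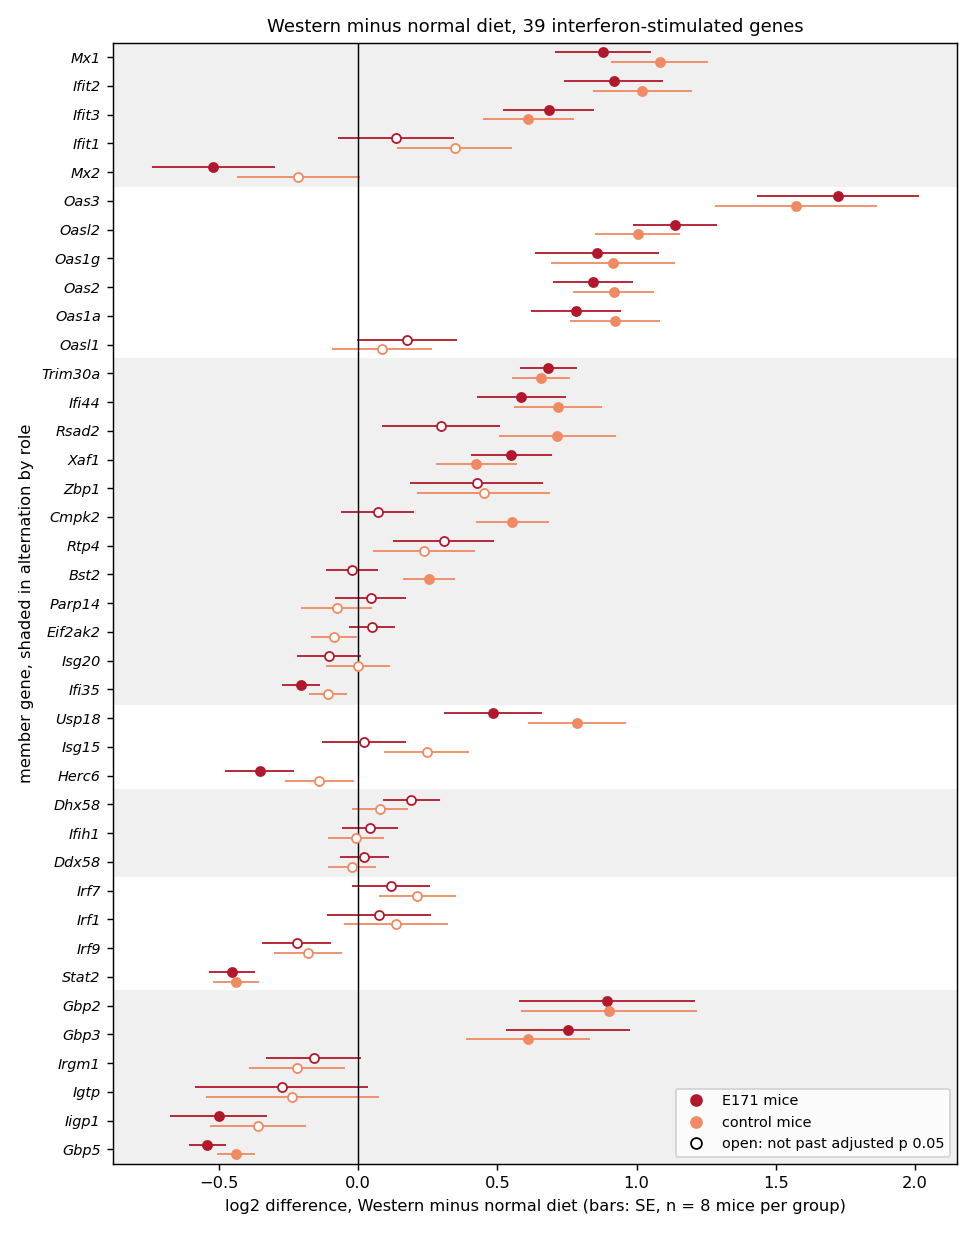
Log2 difference of Western minus normal diet for each of the 39 genes, in E171 mice (dark, upper point of a row) and in control mice (light, lower point), with SE bars and 8 mice per group; filled points have an adjusted p under 0.05. Shading alternates by role: MX and IFIT, oligoadenylate synthetases, other effectors, ISG15 system, RNA sensors, transcription factors, GTPases. Oas3 lies farthest to the right, at 1.72 in E171 and 1.57 in control mice, and Stat2 and the Gbp5 probe used lie left of 0 in both treatments.

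The oligoadenylate synthetases, which make the second messenger that activates RNase L against viral RNA, had the largest share of members called of the 7 role lists: 5 of 6 were higher in each treatment, with a median of 0.85 in E171 mice and 0.92 in control mice. Among all genes 22.2% were higher in E171 mice and 18.5% in control mice. Oas3 had a lowest, median and highest scaled intensity of 5.07, 10.5 and 16.3 in Western E171 mice, against 1.66, 2.65 and 6.93 in normal E171 mice. Without E171 these values were 3.58, 13.7 and 17.0 in Western control mice, against 2.42, 3.91 and 5.45 in normal control mice. Both pairs of groups overlapped, and the difference was 1.72 (SE 0.29, adjusted p = 1.29e-05 by limma) in E171 mice and 1.57 (SE 0.29, adjusted p = 5.65e-05 by limma) in control mice. The Oas3 probe is dim: it was well above background on 2 of 8 normal E171 and 6 of 8 normal control arrays and on all 16 Western arrays, so its low end is poorly measured.

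Oasl2, an oligoadenylate synthetase-like protein, separated the diets completely in both treatments. Its scaled intensity was 191, 232 and 393 (lowest, median and highest) in Western E171 mice, against 99.4, 110 and 157 in normal E171 mice. Without E171 it was 168, 266 and 403 in Western control mice, against 109, 140 and 159 in normal control mice. No Western mouse fell within the range of the normal diet of its treatment, and the differences were 1.14 in E171 mice (SE 0.15, adjusted p = 3.22e-07 by limma) and 1.0 in control mice (SE 0.15, adjusted p = 3.08e-06 by limma). Groups that do not overlap and are higher occurred for 9.14% of all genes in E171 mice and 4.6% in control mice.

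Oas2, which synthesises the same messenger, had values of 211, 317 and 359 in Western E171 mice, against 134, 158 and 221 in normal E171 mice. The control groups had 350, 402 and 601 in Western mice, against 161, 204 and 341 in normal mice. The control groups did not overlap and the E171 groups met at 1 Western mouse, with differences of 0.84 (SE 0.14, adjusted p = 1.59e-05 by limma) in E171 mice and 0.92 (SE 0.14, adjusted p = 5.99e-06 by limma) in control mice. Oas1a was higher by 0.78 in E171 mice and 0.92 in control mice, with medians of 568 in Western E171 against 318 in normal E171 mice, and 717 in Western control against 402 in normal control mice. Its paralog Oas1g was higher by 0.86 in E171 and 0.91 in control mice, on a dim probe that was well above background on 7 of 8 arrays in each E171 group; with normexp background correction it was at 0.10 in E171 and 0.16 in control mice and not called. The Oas1a probe is also listed against an Oas1g transcript in the array files, so these 2 genes may share signal. Oasl1, known in mice as a translational repressor of Irf7, was the exception, at 0.17 in E171 mice (adjusted p = 0.421 by limma) and 0.09 in control mice (adjusted p = 0.715 by limma).

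Among the MX and IFIT genes, 3 of 5 were higher in both treatments, where 16.6% of all genes were. Mx1 encodes a dynamin-like antiviral GTPase, of which C57BL/6 strains are known to make no functional protein. Its scaled intensity was 22.2, 28.3 and 46.9 in Western E171 mice, against 9.78, 17.0 and 23.6 in normal E171 mice. Among control mice it was 26.3, 33.3 and 53.8 on the Western diet, against 13.3, 15.6 and 24 on the normal diet. The control groups did not overlap and the E171 groups did, and the differences were 0.88 in E171 mice (SE 0.17, adjusted p = 0.000102 by limma) and 1.08 in control mice (SE 0.17, adjusted p = 7.83e-06 by limma). Ifit2, of the family that binds foreign RNA and blocks translation, had 21.3, 30.2 and 47.3 in Western E171 mice, against 10.7, 16.2 and 20.4 in normal E171 mice, with no overlap. Without E171 the values were 15.9, 34.0 and 47.0 in Western control mice, against 13.1, 15.3 and 18.1 in normal control mice, where 1 Western mouse lay within the normal range. The Ifit2 differences were 0.92 in E171 mice and 1.02 in control mice, and those of Ifit3 were 0.68 in E171 and 0.61 in control mice. Ifit1, the cap-binding member of the family, was at 0.13 (adjusted p = 0.596 by limma) in E171 mice and 0.35 (adjusted p = 0.171 by limma) in control mice.

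Mx2 was the MX gene on the other side of 0. Its values were 67.5, 74.3 and 107 in Western E171 mice, against 73.1, 109 and 168 in normal E171 mice, an overlapping fall by 0.52 (SE 0.22, adjusted p = 0.0469 by limma). Control mice had 72.7, 110 and 231 on the Western diet, against 85.4, 127 and 252 on the normal diet, a difference of -0.22 (adjusted p = 0.433 by limma). The call in E171 mice was lost under 5 of 11 alternative settings.

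**Figure D2:**
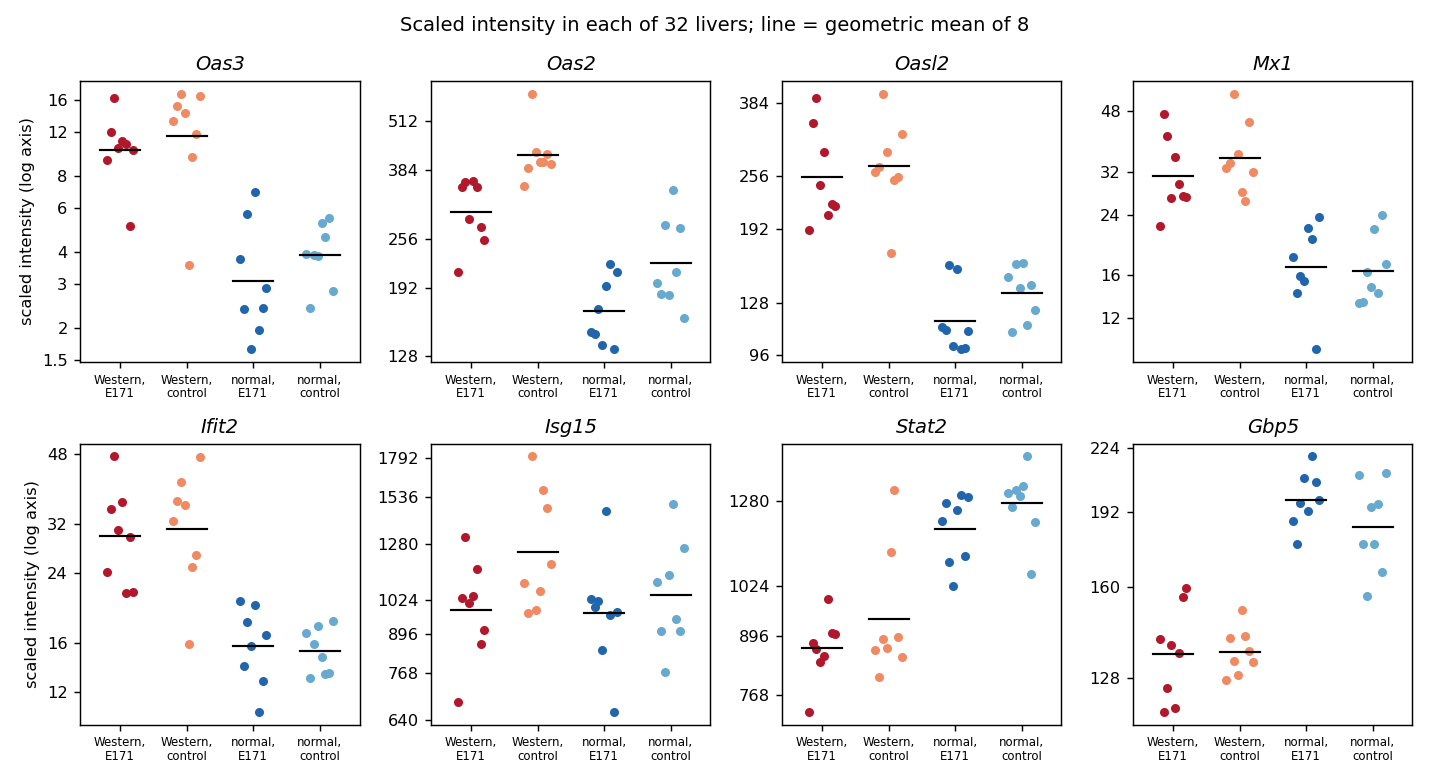
Scaled intensity on a log axis (100 is the 75th percentile of an array) of 8 members in each of the 32 livers, with a line at the geometric mean of each group of 8. Oas3, Oas2, Oasl2, Mx1 and Ifit2 sit higher in both Western groups, Isg15 overlaps across all 4 groups, and Stat2 and Gbp5 (on the probe used) sit lower in both Western groups.

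Of the 12 other antiviral and cell-intrinsic effectors, 3 were higher and 1 lower in E171 mice, where 22.2% of all genes were higher and 31.0% lower, and 6 were higher in control mice, where 18.5% of all genes were. The share of 3 of 12 in E171 mice is near that of all genes. Trim30a, known in mice as a negative regulator of Toll-like receptor signalling, had 82.0, 110 and 129 in Western E171 mice, against 57.6, 68.8 and 80.8 in normal E171 mice, without overlap. Control mice had 84.5, 121 and 151 on the Western diet, against 62.8, 75.7 and 94.8 on the normal diet, with overlap. The differences were 0.68 in E171 mice (SE 0.10, adjusted p = 2.43e-06 by limma) and 0.66 in control mice (SE 0.10, adjusted p = 5.58e-06 by limma). Ifi44, a widely used marker of the type I response, was higher by 0.59 in E171 mice and 0.72 in control mice, with no overlap between the control groups (80.8 was the lowest Western and 80.4 the highest normal value). Xaf1, a pro-apoptotic partner of XIAP, was higher by 0.55 in E171 mice and 0.42 in control mice.

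Rsad2 (viperin), Cmpk2 and Bst2 were called higher in control mice and not in E171 mice. Rsad2, a radical SAM enzyme that makes a chain-terminating nucleotide, had 55.5, 103 and 139 in Western E171 mice, against 50.1, 75.8 and 141 in normal E171 mice. The values without E171 were 106, 144 and 261 in Western mice, against 61.2, 94.9 and 138 in normal mice. The lowest Western control mouse was above the median of the normal controls, whereas the E171 groups covered nearly the same range, and the differences were 0.30 (adjusted p = 0.236 by limma) in E171 mice and 0.71 (SE 0.21, adjusted p = 0.00627 by limma) in control mice. By slide (1 to 4), the Rsad2 difference was 0.49, 0.72, 0.62 and -0.65 in E171 mice. In control mice it was 0.60, 0.54, 0.59 and 1.13 on the same slides. The part of slide 4 in this contrast was not tested. The second Rsad2 probe that passed the filter gave 0.57 in E171 mice and 0.91 in control mice and was not tested on its own. Cmpk2, the mitochondrial nucleotide kinase encoded beside Rsad2, stood at 0.07 (adjusted p = 0.667 by limma) in E171 mice and 0.55 (SE 0.13, adjusted p = 0.000956 by limma) in control mice. By slide (1 to 4), Cmpk2 stood at 0.30, 0.14, 0.14 and -0.30 in E171 mice, and at 0.43, 0.26, 0.69 and 0.83 in control mice. Bst2 (tetherin), which holds budding virions at the cell surface, stood at -0.02 (adjusted p = 0.851 by limma) in E171 mice and 0.25 (SE 0.09, adjusted p = 0.0265 by limma) in control mice, a call that was lost without slide 3 and with the 2 groups fitted alone. The interaction of diet and E171, which is the test of such a contrast, called no member (0.0% of all genes). Unadjusted p by limma was under 0.05 for 2 members and for 1222 of all 23644 genes, and the smallest adjusted p of a member was 0.918. The diet response of Rsad2, Cmpk2 and Bst2 is therefore not shown to differ with E171.

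Ifi35 was lower in E171 mice by 0.20 (SE 0.07, adjusted p = 0.0131 by limma), with 1480, 1620 and 1860 in Western E171 mice, against 1640, 1830 and 2310 in normal E171 mice. Without E171 they were 1620, 1690 and 2010 in Western control mice, against 1710, 1870 and 2110 in normal control mice, with a difference of -0.11 (adjusted p = 0.194 by limma). The Ifi35 call in E171 mice was lost under 3 of 11 alternative settings. The remaining 5 effectors passed in neither comparison: Isg20, an RNA exonuclease, Eif2ak2, the double-stranded RNA-activated kinase PKR, Zbp1, the sensor of Z-form nucleic acid, Parp14, a mono-ADP-ribosyltransferase, and Rtp4. On the probes used, their differences lay between -0.11 and 0.45, with Zbp1 at the top (0.42 in E171 mice and 0.45 in control mice) and the widest spread of them. The other Zbp1 probe stood at 0.51 in E171 mice and 0.78 in control mice, and was not tested on its own.

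In the ISG15 system the conjugated protein itself was not called. Isg15, a ubiquitin-like modifier, had 686, 1020 and 1310 in Western E171 mice, against 660, 988 and 1450 in normal E171 mice. In Western control mice it had 974, 1140 and 1800, against 772, 1030 and 1500 in normal control mice. All 4 groups overlapped, and the differences were 0.02 (adjusted p = 0.915 by limma) in E171 mice and 0.25 (adjusted p = 0.183 by limma) in control mice. Usp18, the protease that removes ISG15 and also damps the type I receptor, had 116, 170 and 201 in Western E171 mice, against 69.3, 114 and 197 in normal E171 mice. Control mice had 162, 231 and 360 on the Western diet, against 102, 139 and 164 on the normal diet. It was higher by 0.49 (SE 0.18, adjusted p = 0.0217 by limma) in E171 mice and by 0.79 (SE 0.18, adjusted p = 0.000544 by limma) in control mice, although both pairs of groups overlapped. Herc6, the main ISG15 ligase of mice, was lower in E171 mice by 0.35 (SE 0.12, adjusted p = 0.0175 by limma), with 8.22, 12.0 and 14.5 in Western E171 mice, against 9.87, 15.7 and 16.9 in normal E171 mice. Among control mice Herc6 had 11, 14.1 and 15.7 on the Western diet, against 12.5, 14.9 and 18.4 on the normal diet, and was not called (-0.14, adjusted p = 0.362 by limma). The Herc6 call in E171 mice was lost with the deposited value table.

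None of the 3 cytosolic RNA sensors was called in either treatment, and none had an unadjusted p under 0.05 by limma. Among all 23644 genes, unadjusted p was under 0.05 by limma for 13879 in E171 mice and 12740 in control mice. Ifih1 (MDA5) stood at 0.04 in E171 and -0.01 in control mice. Ddx58 (RIG-I) stood at 0.02 in E171 and -0.02 in control mice, and Dhx58 (LGP2), which modulates both sensors, at 0.19 in E171 and 0.08 in control mice. The SE of these differences was 0.09 to 0.10, so the spread among mice was smaller than for the oligoadenylate synthetases.

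Of the 4 transcription factors, Stat2 was lower in both treatments. Stat2, the STAT found only in the type I and III complex, had 735, 874 and 988 in Western E171 mice, against 1020, 1230 and 1300 in normal E171 mice, without overlap. In Western control mice it had 805, 880 and 1320, against 1060, 1300 and 1440 in normal control mice, where 2 Western mice reached into the normal range. It fell by 0.45 (SE 0.08, adjusted p = 4e-05 by limma) in E171 mice and by 0.44 (SE 0.08, adjusted p = 7.62e-05 by limma) in control mice. Irf9, its DNA-binding partner, stood at -0.22 in E171 and -0.18 in control mice. Irf7, the amplifier of interferon transcription, stood at 0.12 in E171 and 0.21 in control mice, and Irf1, a factor of the interferon gamma response, at 0.07 in E171 and 0.14 in control mice. These 3 were not called in either treatment, and Irf9 was lower only with both treatments averaged, a fit that called 65.6% of all genes and in which 17 members were higher (25.0% of all genes) and 7 lower (40.7% of all genes). In that averaged fit quantile normalization gave 20 higher and 4 lower, and the deposited values gave 21 and 2. The shares of all genes called under these 2 settings are not given here.

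The GBP and IRG genes encode GTPases that are induced mainly by interferon gamma and attack pathogen vacuoles. Of the 6, 2 were higher in each treatment, and 2 (E171 mice) or 1 (control mice) lower, a count that includes Gbp5 on the probe used in both. Among all genes 22.2% were higher and 31.0% lower in E171 mice, and 18.5% higher and 28.8% lower in control mice. With 6 genes these counts do not set the GTPases apart from all genes. Gbp2 had 93.2, 218 and 567 in Western E171 mice, against 66.2, 103 and 229 in normal E171 mice. The control groups had 101, 187 and 486 in Western mice, against 71.8, 105 and 165 in normal mice. Its groups overlapped widely, with differences of 0.89 (SE 0.32, adjusted p = 0.0183 by limma) in E171 mice and 0.90 (SE 0.32, adjusted p = 0.0195 by limma) in control mice. Gbp3 was higher by 0.75 in E171 and 0.61 in control mice, with medians of 201 in Western E171 against 131 in normal E171 mice, and 198 in Western control against 146 in normal control mice. The calls of Gbp2 and Gbp3 in control mice rest on single animals: without Western control mouse 6 they were 0.71 (adjusted p = 0.0527 by limma) and 0.45 (adjusted p = 0.0716 by limma).

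Iigp1, an IRG GTPase, had 3900, 5980 and 7950 in Western E171 mice, against 6750, 8950 and 10400 in normal E171 mice, and was lower by 0.50 (SE 0.17, adjusted p = 0.0162 by limma). In Western control mice it had 4990, 6160 and 14900, against 5890, 8880 and 11500 in normal control mice, and was not called (-0.36, adjusted p = 0.0877 by limma). The call in E171 mice was lost under 4 of 11 alternative settings, among them the mean over its probes. Without Western control mouse 6, Iigp1 (-0.52, adjusted p = 0.0034 by limma), Irgm1 (-0.38, adjusted p = 0.0316 by limma) and Igtp (-0.56, adjusted p = 0.0498 by limma) were all called lower in control mice, which takes the count of lower members there to 5. With that mouse, Irgm1 and Igtp, which guard the host's own membranes, were not called: Irgm1 stood at -0.16 in E171 and -0.22 in control mice, and Igtp at -0.28 in E171 and -0.24 in control mice. Other kept Irgm1 probes stood at -0.23 and -0.18 in E171 mice, and at -0.18 and -0.21 in control mice. A dimmer kept Irgm1 probe went the other way, at 0.51 in E171 and 0.06 in control mice.

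Gbp5, a GBP known to promote inflammasome assembly, has 2 probes that disagree in direction, so its 60-base targets are shown with the gene strand plus on mm9. The probe used, the brighter of them, lies at chr3:142181426-142181485 and carries an Ensembl transcript name, and the other lies at chr3:142184779-142184838 and carries a RefSeq one.
Gbp5, probe used: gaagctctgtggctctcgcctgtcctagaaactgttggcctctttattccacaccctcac
Gbp5, other probe: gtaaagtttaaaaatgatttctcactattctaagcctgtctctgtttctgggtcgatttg

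With the first Gbp5 probe, scaled intensity was 118, 137 and 159 in Western E171 mice, against 177, 197 and 220 in normal E171 mice. Without E171 it was 127, 135 and 151 in Western control mice, against 156, 186 and 211 in normal control mice. Neither pair of groups overlapped, which occurred with lower Western values for 8.88% of all genes in E171 mice and 5.37% in control mice. The fall was by 0.54 in E171 mice (SE 0.07, adjusted p = 1.21e-07 by limma) and by 0.44 in control mice (SE 0.07, adjusted p = 4.54e-06 by limma). The other probe stood at 0.56 in E171 mice and 0.52 in control mice, and was not tested on its own. No direction for Gbp5 as a gene can be given from these probes.

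The ligands upstream were not called higher. Of 18 interferon genes on the array, 10 passed the filter on dim probes; 5 were lower in E171 mice (31.0% of all genes) and 2 in control mice (28.8% of all genes), and Ifnb1 was not among those tested. Ifnk was lowest at -0.62 in E171 mice and -0.50 in control mice, and Ifna1 stood at -0.61 in E171 and -0.38 in control mice. Ifng was not called, at -0.27 in E171 and -0.04 in control mice. Of 16 receptor and signalling genes, 5 were higher and 5 lower in E171 mice, where 22.2% of all genes were higher and 31.0% lower. In control mice 5 were higher and 4 lower, where 18.5% of all genes were higher and 28.8% lower. The receptor chain of type III interferon, Ifnlr1, rose by 1.37 in E171 and 0.95 in control mice and its partner Il10rb by 0.92 in E171 and 0.91 in control mice. The interferon gamma receptor chain Ifngr2 rose by 0.78 in E171 and 0.82 in control mice. The signalling phosphatase Ptpn6, expressed mainly in blood cells, rose by 0.55 in E171 and 0.54 in control mice, and Ifngr1 by 0.39 in E171 and 0.49 in control mice. The chains of the type I receptor were lower in both: Ifnar1 stood at -0.34 in E171 and -0.35 in control mice, and Ifnar2 at -0.18 in both. Stat3 (-0.36 in E171 and -0.44 in control mice) and Pias1 (-0.22 in E171 and -0.21 in control mice) were lower as well, and the phosphatase gene Ptpn2 was called lower in E171 mice (-0.20, adjusted p = 0.0317 by limma) and stood at -0.07 in control mice (adjusted p = 0.476 by limma).

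Of 26 genes of nucleic acid sensing, 11 were higher and 7 lower in E171 mice, and 9 higher and 5 lower in control mice. Their median difference was 0.02 in E171 mice and 0.03 in control mice. Beside this and the next lists, 22.2% of all genes were higher and 31.0% lower in E171 mice. In control mice 18.5% of all genes were higher and 28.8% lower. The endosomal RNA receptor Tlr8 rose by 1.23 in both, the DNA sensor Aim2 by 1.15 in E171 mice and 0.91 in control mice, and the myeloid factor Irf8 by 1.06 in E171 and 0.93 in control mice. Trim25, a ubiquitin ligase of RIG-I signalling, fell by 1.08 in E171 mice and by 0.87 in control mice. Among 48 other interferon-stimulated genes outside the 39, 16 were higher and 8 lower in E171 mice, and 14 higher and 6 lower in control mice, with a median of 0.16 in E171 and 0.12 in control mice. Ifi27l2b rose by 3.68 in E171 and 3.39 in control mice, and Ifi27l2a by 1.47 in E171 and 1.21 in control mice. Slfn2 rose by 1.38 in E171 and 1.31 in control mice, and the chemokine gene Cxcl10 by 1.29 in E171 and 1.51 in control mice. Genes of MHC class I presentation moved little, with 2 of 16 higher and 1 lower in E171 mice and 2 lower in control mice. Psmb9 (0.51) and Tap1 (0.44) rose in E171 mice and H2-Q4 fell in both, by 0.19 in E171 mice and by 0.22 in control mice. All 8 MHC class II genes rose in both treatments, by a median of 1.52 in E171 mice and 1.29 in control mice; H2-Aa stood at 1.60 in E171 and 1.47 in control mice.

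Markers of several other cell types moved with the diet as well. Among all genes 22.2% were higher and 31.0% lower in E171 mice, and 18.5% higher and 28.8% lower in control mice. In each treatment 8 of 10 lipid-associated macrophage markers were higher and 1 lower. For stellate cells and fibroblasts 6 of 8 were higher and 0 lower. For cholangiocytes 5 of 6 were higher in E171 mice and 4 in control mice, with 0 lower. The mean log2 level of 15 Kupffer cell and macrophage markers ranged from 2.20 to 3.65 in Western E171 mice, against 1.67 to 2.72 in normal E171 mice, and from 1.99 to 3.28 in Western control mice, against 1.26 to 3.04 in normal control mice. For 5 monocyte markers these ranges were -0.28 to 1.04 in Western E171 mice, against -2.37 to -1.54 in normal E171 mice, and -0.58 to 0.83 in Western control mice, against -2.04 to -1.32 in normal control mice. Plasmacytoid dendritic cells are known as strong producers of type I interferon. Of their 8 markers, 5 were higher and 1 lower in E171 mice, and 3 higher and 1 lower in control mice, over a mean log2 level of 0.86 to 1.09 in Western E171 mice, against 0.55 to 0.77 in normal E171 mice, and of 0.80 to 1.16 in Western control mice, against 0.53 to 0.80 in normal control mice. Siglech, the most restricted of these markers, was the lower one, and Irf8, Cox6a2 and Spib rose in both treatments. Of 14 T and NK cell markers tested, 7 were higher and 3 lower in E171 mice, and 4 higher and 2 lower in control mice. Of 10 endothelial markers, 3 were higher and 2 lower in each treatment. For 7 B cell markers tested, 2 were higher and 0 lower in E171 mice, and 1 higher and 1 lower in control mice. Conventional dendritic cells had 5 of 7 markers higher and 1 lower in each treatment. Neutrophils had 4 of 7 higher and 1 lower in E171 mice, and 3 higher and 0 lower in control mice. The part of these cells in the interferon-stimulated transcripts was not tested.

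With E171 most members had levels slightly below those of control mice on either diet, and at most 1 was called. On the Western diet 34 of 39 members had a difference below 0, where 45.7% of all genes did, with a median of -0.13, where that of all genes was 0.01. On the normal diet it was 32 of 39, where 46.7% of all genes did, with the same member median and 0.01 for all genes. The Western and normal comparisons share no mice, and 30 of 39 members (76.9%) were below 0 in both, against 24.8% of all genes. These counts carry no test, since members vary together from mouse to mouse. Western E171 mice 1 and 7, both on slide 4, were the lowest of their group for 11 and 18 members. The Rsad2 difference on the Western diet was -0.43, -0.34, -0.32 and -1.55 on slides 1 to 4. The part of slide 4 in the member differences was not tested. No member was called on either diet: limma called 0.381% of all genes on the Western diet (0.211% higher and 0.169% lower) and 0.0% on the normal diet. Unadjusted p by limma was under 0.05 for 11 members on the Western and 3 on the normal diet. Among all 23644 genes it was under 0.05 for 2821 on the Western and 958 on the normal diet. No member had E171 and control groups without overlap on either diet; on the Western diet 0.14% of all genes did with higher and 0.0423% with lower E171 values. With the deposited value table in place of the raw intensities, 1 member was called lower on the Western diet, Cmpk2 (-0.50, adjusted p = 0.0378 by limma).

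**Figure D3:**
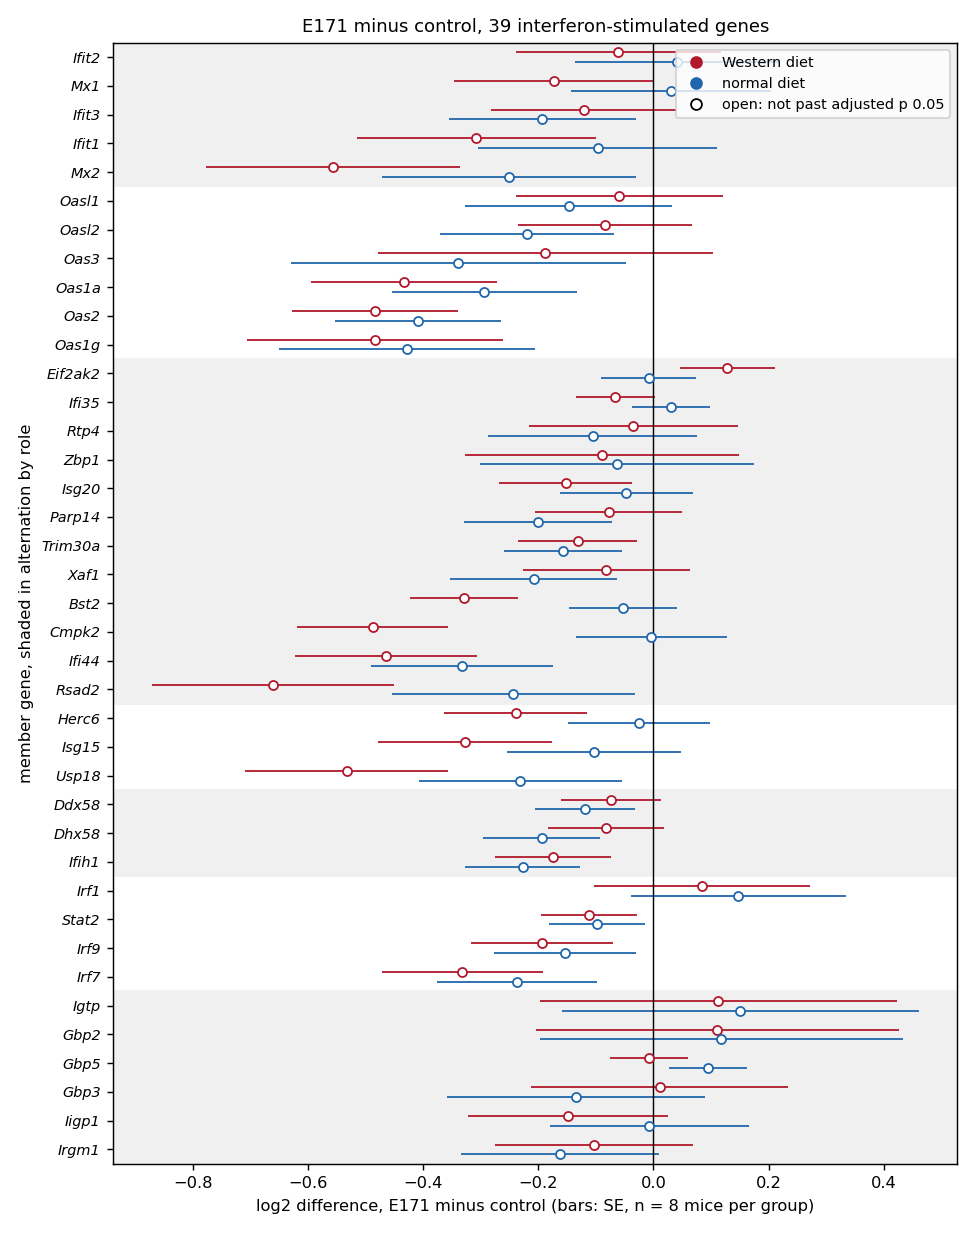
Log2 difference of E171 minus control for each of the 39 genes, on the Western diet (red, upper point of a row) and on the normal diet (blue, lower point), with SE bars and 8 mice per group; open points are not past an adjusted p of 0.05, and none is filled. On the Western diet 34 and on the normal diet 32 of the 39 points lie left of 0, and Rsad2 on the Western diet lies farthest left, at -0.66.

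Oas2 was the member called with the diets averaged. Its scaled intensity was 211, 317 and 359 in Western E171 mice, against 350, 402 and 601 in Western control mice. On the normal diet it was 134, 158 and 221 in E171 mice, against 161, 204 and 341 in control mice. The groups overlapped on both diets, and the difference was -0.48 on the Western diet (adjusted p = 0.119 by limma) and -0.41 on the normal diet (adjusted p = 0.999 by limma). Averaged over the diets Oas2 fell by 0.45 (SE 0.10, adjusted p = 0.0404 by limma), where 0.368% of all genes were called, 0.186% higher and 0.182% lower, and it was below 0 on each of the 4 slides, at -0.39, -0.30, -0.54 and -0.56. The slides split the arrays of this same fit, so their values are not separate support. The call sits near its threshold. It held in 14 of the 32 fits that left out 1 array, where the difference stayed between -0.48 and -0.40 and the adjusted p between 0.027 and 0.0788. The arrays whose removal ended it were mice 1, 4, 7 and 8 of Western E171, mice 3 to 7 of Western control, mice 1, 2, 3, 4 and 7 of normal E171, and mice 3, 5, 6 and 7 of normal control.

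Other members with large averaged differences were not called. Oas1g stood at -0.46 (adjusted p = 0.229 by limma), Rsad2 at -0.45 (adjusted p = 0.193 by limma), Mx2 at -0.40 (adjusted p = 0.312 by limma), Ifi44 at -0.40 (adjusted p = 0.111 by limma), Usp18 at -0.38 (adjusted p = 0.186 by limma) and Oas1a at -0.36 (adjusted p = 0.16 by limma). On the Western diet alone the smallest adjusted p was that of Cmpk2 (-0.49, adjusted p = 0.088 by limma), with 64.4, 81.7 and 103 in Western E171 mice, against 75.3, 114 and 162 in Western control mice. Its difference on the normal diet was -0.0037, with an SE of 0.13. Ifit2 and Mx1, among the members highest on the Western diet, lay near 0 for E171, with averaged differences of -0.01 for Ifit2 and -0.07 for Mx1. Of the 39 members, 17 had an averaged difference below 0 on all 4 slides. The share of all genes that did was not computed, and this count carries no test.

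The median member varied more among the mice of a group than the median gene. The median SD of members was 0.289 in Western E171 mice, where that of all genes was 0.214, and 0.336 in Western control mice, where it was 0.221. On the normal diet it was 0.319 in E171 mice, where that of all genes was 0.198, and 0.304 in control mice, where it was 0.215. Mice were often high or low for most members at once. Normal E171 mouse 5 was above its group mean for 37 of 39 members and the highest of its 8 for 23, with a median deviation of 0.44. Normal E171 mouse 7 was above the mean for 2 members and the lowest for 26, with a median deviation of -0.44. Normal control mouse 5 was the highest for 22 members and mouse 2 the lowest for 22. In the Western groups, E171 mouse 3 was the highest for 17 and E171 mouse 7 the lowest for 18, and control mouse 6 was the highest for 15 and control mouse 3 for 14.

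The array slide moved with this. Each slide held 2 mice of every group, and 7 of the 8 mice on slide 3 had a median member deviation above 0, against 4, 3 and 2 of 8 on slides 1, 2 and 4. The mice numbered 5 in normal E171, 5 in normal control, 3 in Western E171 and 3 in Western control were all on slide 3. Since the slides are balanced over groups, the slide as a block in the fit left every count of called members unchanged or within 1.5 times. Leaving slide 3 out gave 14 members higher in control mice and 3 lower in E171 mice. The part of the slide in the deviations was not tested.

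**Figure D4:**
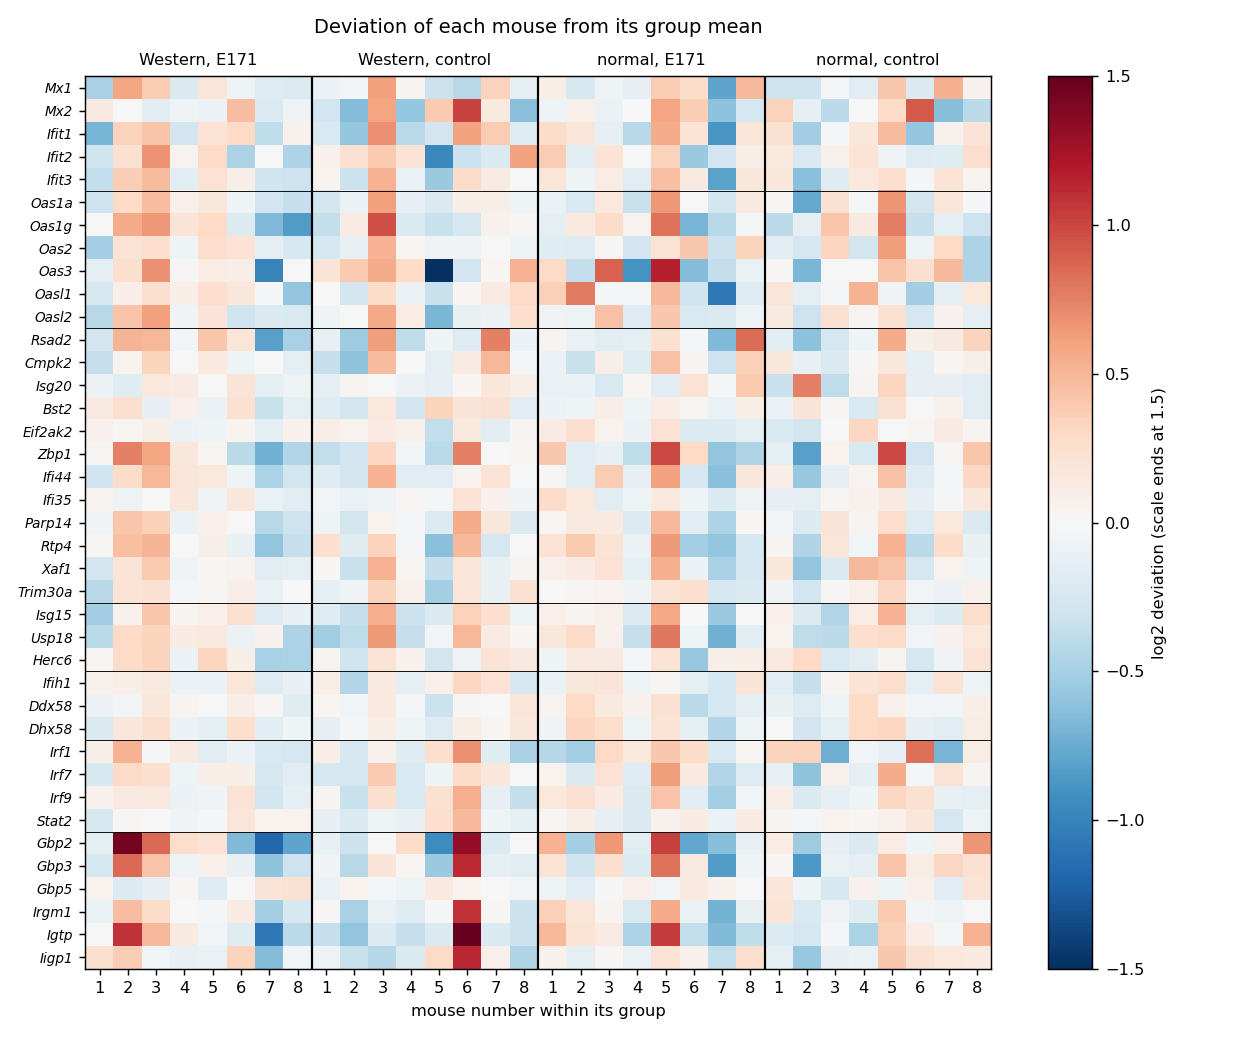
Deviation of each mouse from the mean of its own group (log2, red above and blue below, colours end at 1.5) for the 39 genes in rows and the 32 mice in columns, with lines between groups and between roles. Normal E171 mouse 5 and normal control mouse 5 are red down most of their columns, normal E171 mouse 7 is blue, and Western control mouse 6 is dark red mainly in the GTPase rows at the bottom.

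Western control mouse 6 had a median deviation of 1.12 over the GTPases and of 0.18 over the other members; it is described here because of these values. Igtp had a scaled intensity of 5240 in it, against 738 to 960 in the 7 other Western control mice, Irgm1 had 1690 against 570 to 806, and Iigp1 had 14900 against 4990 to 8390. Gbp2 had 486 against 101 to 236 and Gbp3 had 461 against 144 to 243, while Gbp5 on its first probe had 142, within the 127 to 151 of the others. The same liver was high for several genes outside the 39 that interferon gamma is known to induce. Gbp6 had 915 against 105 to 191, the feedback inhibitor Socs1 had 331 against 22.2 to 36.1, and the chemokine gene Cxcl9 had 867 against 177 to 288. Cxcl10 had 750, just above the 213 to 718 of the others, and the MHC class II gene H2-Aa had 381, within the 152 to 673 of the others. Nkg7, a granule gene of cytotoxic lymphocytes, had 345 against 39.5 to 112, the T cell coreceptor gene Cd8a had 13.5 against 1.69 to 7.28, and the pan-T cell gene Cd3e had 308, within the 237 to 320 of the others. Of the other members, 10 were also higher in it than in the 7 other mice, by smaller margins. Mx2 had 231 against 72.7 to 172, Irf1 had 2110 against 938 to 1560, Zbp1 had 228 against 101 to 167 and Stat2 had 1320 against 805 to 1120, with Irf9, Parp14, Ifih1, Ifi35, Rtp4 and Eif2ak2 making up the 10. Members not above the others included Oas2, Oasl2 and Mx1: Oas2 had 402 against 350 to 601, Oasl2 had 251 against 168 to 403, and Mx1 had 26.3, just under the 28 to 53.8 of the others.

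**Figure D5:**
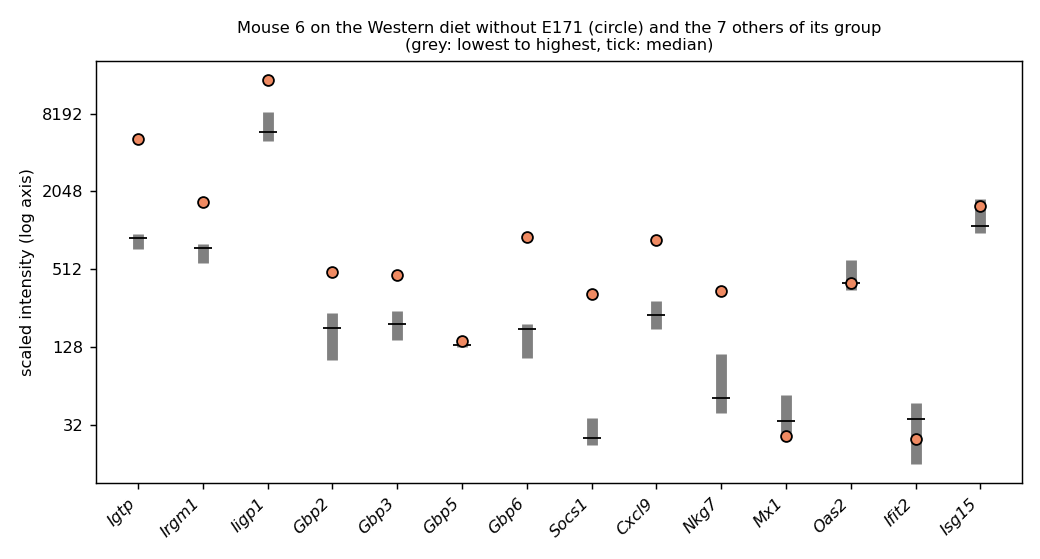
Scaled intensity on a log axis in Western control mouse 6 (circles) and the range (grey bar) and median (tick) of the 7 other mice of its group, for 14 genes. The GTPases apart from Gbp5, and Gbp6, Socs1, Cxcl9 and Nkg7, lie above the bars, with Socs1 at 331 against at most 36.1; Oas2, Ifit2 and Isg15 lie within their bars and Mx1 at 26.3 just below its bar.

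Livers in other groups were also high for some of these genes. Western E171 mouse 2 had a median GTPase deviation of 0.66. In it Gbp2 had 567 against 93.2 to 379 in the 7 other mice of its group, Igtp had 2540 against 572 to 1690, Gbp6 had 377 against 76 to 213 and Cxcl9 had 875 against 152 to 410. Normal E171 mouse 5 had a median GTPase deviation of 0.69, and in it Igtp had 3010 against 920 to 2050, Gbp2 had 229 against 66.2 to 178, Gbp6 had 214 against 37.1 to 153 and Cxcl9 had 306 against 80.7 to 238. The source of these profiles was not tested.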

How the data were processed

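Per the file headers, the authors' scanner files give Cy3 intensity for each spot as processed, mean and background signal, with probe positions on mm9; the submitters' processing notes name Agilent Feature Extraction 10.10.1.1 and limma. The deposited value table holds log2 values, whose processing by the authors is not given in the sources used here. The members and the gene lists were chosen with earlier results of these data known.

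Log2 processed intensity, without outlier and control spots, was centred on the 75th percentile of each array. A probe was kept if well above background on at least 6 of 8 arrays in at least 1 of 4 groups (63 of 67 member probes, 35777 in all), and the brightest kept probe stood for each gene. All 32 arrays entered 1 limma fit (R 4.3.3, limma 3.58.1, residual df 28) with 1 mean per group and no covariate, with Benjamini-Hochberg adjustment over 23644 genes, of which 18247 have a symbol and 5397 are single unnamed probes. The fit was tested on simulated data. Replicate numbers come from the titles and share no stated litter or day; same-numbered mice correlated in their deviations at -0.298 to 0.571 (median 0.0685), so they were not treated as pairs. No arrays were identical (within-group correlation 0.9813 to 0.9957). With arrays, the number of mice limits the precision. Genes whose values are given in full are, in each role list, up to 4 called members with the largest diet difference averaged over treatments, every member called for E171 or lower on the Western diet, and every member dim in a group; of other lists, up to 4 called genes; 1 further listed gene is not reported here. Alternatives were quantile normalization, a percentile over detected probes, normexp with an offset of 50, the deposited log2 table, other filters, slide or replicate as a block, each group pair alone, mean of probes and, added after seeing the data, leaving out slide 3 or each array. Promoter windows are RefSeq's on GRCm38.p6. Tgtp1 and other listed genes without a tested probe are not analysed here.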

Additional observations from a re-analysis of the deposited data

Results flagged for a closer look

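Within groups of 8 mice, 11 of 156 combinations of member and group (7.05%) had a highest or lowest mouse whose gap to the next, as a share of the range of the group, was above Dixon's 95% critical value for 8 mice; chance flags about 1 in 20 such groups. Western control mouse 3 was the highest for Oas1a (gap 0.588 of the range), Oas1g (0.634) and Oas2 (0.631). Western control mouse 6 was the highest for Igtp (0.866), Irgm1 (0.681) and Gbp3 (0.549). Western control mouse 5 was the lowest for Oas3 (0.628) and Ddx58 (0.556). The lowest mouse stood apart for Gbp3 in normal control mouse 2 (0.557), Iigp1 in Western E171 mouse 7 (0.532) and Herc6 in normal E171 mouse 6 (0.656). No member differed in its diet response between E171 and control mice by the interaction test.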

How the results depend on the processing

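Of the 40 calls of single members, the 14 members higher in both diet comparisons kept the positive sign under all 11 alternatives run, and their calls apart from Oas1g (normexp) and, without slide 3 in control mice, Gbp2 and Gbp3. Members called higher numbered 13 to 14 in E171 mice (14 as reported) and 14 to 17 in control mice (17 as reported) over these settings. The shares of all genes called under the alternatives are not given here. Lower members moved more. In E171 mice 6 became 2 with the deposited table, 4 with quantile normalization or the mean of all kept probes and 3 without slide 3; in control mice 2 became 1 with the mean of probes. With treatments averaged 7 became 4 with quantile normalization, 2 with the deposited table and 3 without slide 3. Gbp5 turned to 0.0075 (adjusted p = 0.955 by limma) in E171 mice and 0.042 (adjusted p = 0.752 by limma) in control mice with the mean of its 2 probes, which oppose each other.

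For E171, the deposited table gave 1 lower member on the Western diet, against 0. The single lower member of the averaged fit, Oas2, became 0 with quantile normalization, with the percentile over detected probes, with no filter on dim probes and without slide 3; its adjusted p by limma ranged from 0.0148 to 0.178 over 10 settings other than leaving out arrays. The cause was not tested. Leaving out each array in turn gave 13 to 15 higher and 5 to 7 lower members in E171 mice, 14 to 18 higher and 2 to 5 lower in control mice, the 5 without Western control mouse 6, and 0 to 1 lower for E171 averaged. The fit with the replicate number as a block (no pairing is stated) left the counts at 14 higher and 6 lower in E171 mice and 17 higher and 2 lower in control mice, and changed no member count.

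Dim probes limit Oas3 and Oas1g. Litter, time of day and cell composition could not be entered in a fit, and 1 probe stands for each gene, so different transcripts of a gene are not resolved.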
